A study of Mus musculus with 2 samples.

Results

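The genes of IL-10, IL-12, IL-23, IL-27 and IL-6 comprise 8 of the 32285 genes measured, taken by gene symbol: Il10 and its receptor subunit Il10ra, the subunit genes Il12a, Il12b, Il23a, Il27 and Ebi3, and Il6. They were described in single cells of mouse tumours, across marker-gated macrophages and their states, migratory dendritic cells, neutrophils and T cells. The cytokines of the IL-12 family are built from pairs of chains. IL-12 joins p35 (Il12a) to p40 (Il12b), IL-23 joins p19 (Il23a) to the same p40, IL-27 joins p28 (Il27) to Ebi3, and IL-35 joins p35 to Ebi3. The chains of IL-12 and IL-23 are joined inside the cell that secretes them. IL-12 drives interferon-gamma production by T and NK cells, and IL-23 maintains cells that make IL-17. IL-10 acts through Il10ra and Il10rb to activate STAT3 and restrains macrophages and dendritic cells, while IL-6, a pyrogenic cytokine of the acute phase response, signals through Il6ra and Il6st.

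The study compared tumours of control mice with tumours of mice given motolimod, a small-molecule agonist of the RNA sensor TLR8. Collagenase D with DNase I released the tumour cells, CD45-positive cells were selected on magnetic beads, and droplet 3′ libraries were made. The labels name 5 mice per group and 1 library per group, and state neither whether mice were pooled nor the strain, age, tumour model, dose or schedule. With 1 library per group no difference has a replicate check and no test was made. Every interval below is an exact 95% interval that covers counting error only (Poisson for levels, conditional binomial for ratios, Clopper-Pearson for shares).

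Levels are CPM, the UMIs (unique molecular identifiers, 1 per captured transcript molecule) of a gene per 1000000 UMIs summed over the cells of a group. The control library kept 7484 barcodes with a median of 14055 UMIs and the motolimod library 9314 with a median of 3743, and 113 barcode sequences occurred in both. Because of this gap in depth, shares of cells with a UMI are also given after each cell was thinned to 1000 UMIs. Gates gave 4294 control and 4406 motolimod macrophages, 562 and 2748 neutrophils, 126 and 34 migratory dendritic cells and 359 and 452 T cells. Each name below means the marker gate. All 10 markers of the macrophage, migratory dendritic cell and neutrophil gates and all 8 of the T cell gate were detected in their own group in both libraries. Barcodes in the gates of more than 1 lineage, 588 and 705, were set aside as mixed. Epithelial cells, 765 and 80 barcodes with median depths of 40011 and 46763 UMIs, were taken as cells that should lack the genes. Each member lay below 2 CPM there in both libraries. The macrophage markers summed to 202 and 181 CPM there, against 966 and 381 in neutrophils, whose median depths were 2092 and 2021 UMIs. A low epithelial level therefore sets no bound on free RNA in shallower groups.

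Members are named by symbol. In the mm10 build, with GENCODE coordinates, Il10 lies at chr1:131019845-131024974 on the plus strand and Il12a at chr3:68690644-68698547 on the plus strand. Il12b lies at chr11:44400063-44414033 (plus), Il23a at chr10:128296139-128298752 (minus) and Il27 at chr7:126589010-126594941 (minus). Ebi3 lies at chr17:55952640-55957022 (plus), Il6 at chr5:30013114-30019981 (plus) and Il10ra at chr9:45253837-45269149 (minus). Il27 overlaps Apobr and Ebi3 overlaps Gm16712, each on the opposite strand, and Il10ra overlaps Gm20612 and Mir7086. The use of strand in counting is not stated, so reads of these 3 members and their partners cannot be told apart.

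Promoter windows of 300 bases from RefSeq (GRCm38.p6, plus strand) were at hand for 4 of the 8 members, Il12a, Il12b, Ebi3 and Il6. Those of Il12b (chr11:44399813-44400112), Ebi3 (chr17:55952373-55952672) and Il6 (chr5:30012864-30013163) are shown because Il12b was concentrated in migratory dendritic cells, Ebi3 was spread over macrophages, neutrophils and dendritic cells, and Il6 was sparse in all of them. Capitals mark matches to the NF-kB consensus or to the AP-1 letters TGANTCA, searched on both strands together with the interferon-stimulated response element (by its consensus) and the TATA letters TATAAA.
Il12b: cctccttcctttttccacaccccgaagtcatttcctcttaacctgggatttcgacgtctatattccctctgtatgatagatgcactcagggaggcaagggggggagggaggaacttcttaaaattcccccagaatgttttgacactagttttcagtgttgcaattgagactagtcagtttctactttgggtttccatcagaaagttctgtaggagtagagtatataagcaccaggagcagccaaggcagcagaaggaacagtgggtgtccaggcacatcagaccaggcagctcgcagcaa
Ebi3: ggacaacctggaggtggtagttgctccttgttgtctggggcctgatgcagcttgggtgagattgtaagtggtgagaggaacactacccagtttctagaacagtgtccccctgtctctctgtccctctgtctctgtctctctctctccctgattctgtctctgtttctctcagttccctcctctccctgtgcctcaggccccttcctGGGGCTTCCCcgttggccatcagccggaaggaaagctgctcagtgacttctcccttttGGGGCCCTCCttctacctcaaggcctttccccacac
Il6: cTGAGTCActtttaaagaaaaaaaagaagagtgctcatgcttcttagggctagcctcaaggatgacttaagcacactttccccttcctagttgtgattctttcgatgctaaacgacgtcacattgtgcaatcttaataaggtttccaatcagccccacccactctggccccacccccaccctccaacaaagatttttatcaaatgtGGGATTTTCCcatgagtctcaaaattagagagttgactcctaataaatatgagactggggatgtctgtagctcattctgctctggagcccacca
The Ebi3 window held the NF-kB consensus at position -44 from the start site (on both strands) and again at position 14. The Il6 window held it at position -44 and the AP-1 letters at position -249. Neither the Il12b window nor the 2 windows of Il12a held any of the 4 motifs in these exact letters. Among all 32851 windows, 8.46% held the NF-kB consensus, 7.81% the AP-1 letters, 3.44% the response element and 13.6% the TATA letters.

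The members divided among the cell groups. Macrophages were 57.4% of control and 47.3% of motolimod barcodes and held 53.6% and 57.9% of all UMIs. They held 78.5% of all Il10 UMIs in the control library and 83.7% in the motolimod library. Their share was 81.1% and 79.2% for Il27, 79.2% and 62.3% for Ebi3 and 72.9% and 65.5% for Il10ra, so with motolimod the shares of Ebi3 and Il10ra lay near the macrophages' share of all UMIs. Migratory dendritic cells, 1.68% of control and 0.365% of motolimod barcodes, held 88.6% of the control UMIs of Il12b but 13% of the 100 motolimod ones, of which 64 lay in mixed barcodes and 23 in macrophages. Neutrophils held 75.7% of Il12a and 69.3% of Il23a UMIs in the motolimod library, against 18.8% and 30.5% in the control library, and they were 29.5% and 7.51% of barcodes.

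**Figure D1:**
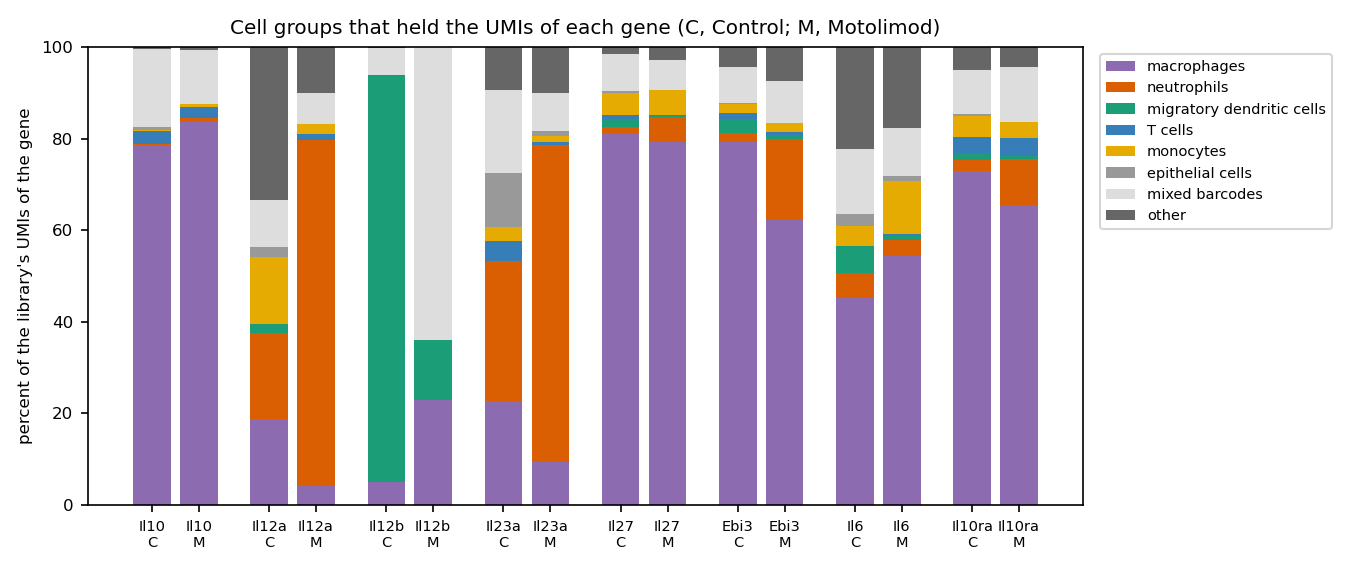
Percent of each gene's UMIs, over all filtered barcodes of a library, that lay in each cell group (stacked bars, left of each pair Control, right Motolimod). Macrophages fill most of the bars of Il10, Il27, Ebi3 and Il10ra, migratory dendritic cells 88.6% of the Control and 13% of the Motolimod bar of Il12b, and neutrophils 75.7% of the Motolimod bar of Il12a.

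**Figure D2:**
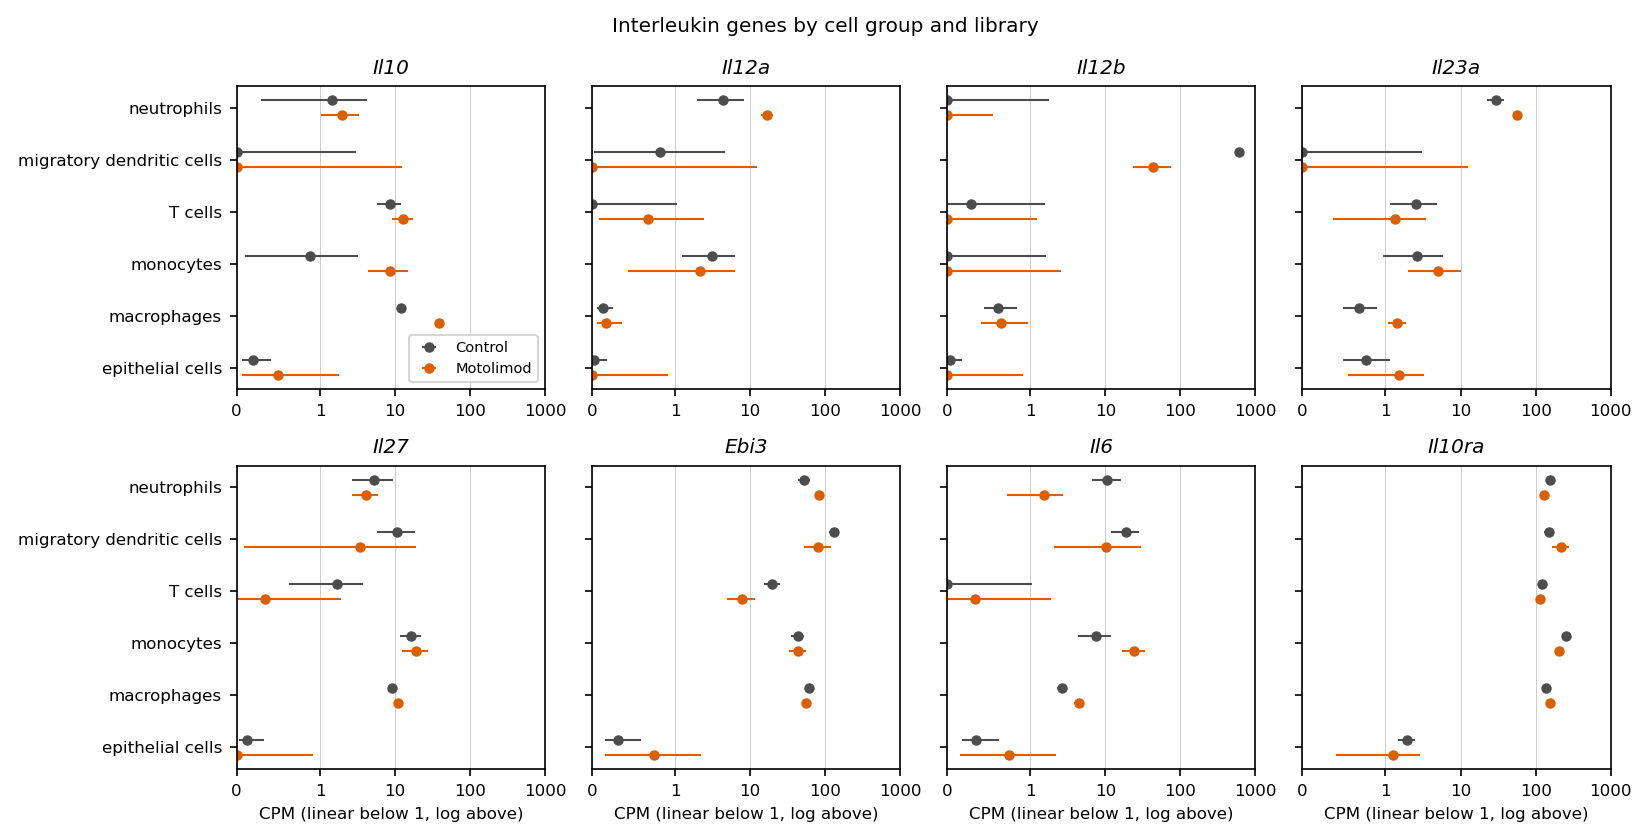
CPM of the 8 genes in 6 cell groups, with exact 95% Poisson intervals; the axis is linear below 1 and logarithmic above. Il12b reaches 604 in Control migratory dendritic cells, and Il10ra stays above 100 in every immune group shown.

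Il10, the anti-inflammatory cytokine, was higher in motolimod macrophages. Its level was 11.9 CPM in the control library (809 UMIs, interval 11.1 to 12.8) and 38.8 in the motolimod library (1377 UMIs, 36.8 to 40.9). The motolimod macrophages were thus higher by a ratio of 3.26 (2.99 to 3.56). The share of macrophages with an Il10 UMI was 9.48% and 14.2%, and 1.88% and 4.61% after thinning, against 0.131% and 0% of epithelial cells. Of the 7 members with at least 20 UMIs over both libraries in macrophages, Il10, Il23a and Il6 were at least 1.5-fold higher and none was as much lower, but Il23a did not exceed its level in epithelial cells. The motolimod epithelial level of Il23a came from 1 cell. Over all 13567 genes tested in macrophages, 13.2% were at least 1.5-fold higher and 10.8% at least 1.5-fold lower.

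The macrophage states differed in Il10 more than the libraries did. Perivascular-like macrophages, gated on Lyve1, Timd4 and Cd209 genes, had the highest level in both libraries, 168 CPM in the control (145 to 193) and 192 with motolimod (145 to 250). Between the libraries their ratio was 1.15 (0.836 to 1.55), an interval that spans 1. Resident-like macrophages, gated on Folr2, Cbr2, Fcna and Cd163 among others, came second, at 48.1 (41.7 to 55.2) and 104 (97.4 to 112). Their intervals lay apart from those of the perivascular-like state above and of every other state below. The ratio in resident-like macrophages was 2.17 (1.86 to 2.54).

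How far the resident-like level differed depended on how cells were weighted. With each cell weighing the same the ratio was 1.18, after thinning it was 1.42, and with gate thresholds 1.5 times higher it was 1.59. The share of thinned resident-like macrophages with an Il10 UMI was 6.20% and 8.31%. In the control library 19 of the 202 UMIs came from 1 cell, and in the motolimod library the highest cell held 17 of 847.

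Resident-like cells were also a larger part of the motolimod macrophages, 34.6% (1526 cells) against 8.57% (368 cells), and held 51.5% of all motolimod Il10 UMIs against 19.6% in the control. With the motolimod levels of each state weighted by the control mix of states, the macrophage ratio of Il10 was 2.06 in place of 3.26. Leiden clusters made mostly of macrophages also split unevenly between the libraries. Cluster 2 held 32 control and 1486 motolimod cells and cluster 18 held 0 and 80, while cluster 4 held 809 and 222 and cluster 8 held 332 and 435. The part of this split in the ratios within states was not tested. The 8 classical monocyte markers, which share F13a1 with the resident-like gate, summed to 2171 CPM in control and 2770 in motolimod resident-like macrophages. The markers of the resident-like gate itself summed to 2830 and 2621. Genes of the other state gates were lower there with motolimod. The Ass1 MHC-II genes summed to 8749.9 and 3090.5, the Mmp12 genes to 1063 and 298 and the Gpnmb genes to 2059 and 1251.5. The cycling genes summed to 320 and 73.6, the Cd72 Vcam1 genes to 348 and 146 and the perivascular-like genes to 112 and 19.6. The part of these differences in the result was not tested.

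In the states with low Il10 the level was higher with motolimod too. Gpnmb macrophages, with the lipid-handling genes Gpnmb, Cd36 and Fabp5, had 2.98 CPM (7 UMIs) in the control and 27.4 (41 UMIs) with motolimod, a ratio of 9.21 (4.09 to 24.3). Mmp12 macrophages had 4.0 and 13.3 (ratio 3.32, 2.11 to 5.28), and macrophages in no state gate 6.17 and 24.1 (ratio 3.90, 3.09 to 4.95). The intervals of all 3 ratios lay above 1. In Ass1 MHC-II macrophages, the antigen-presenting state, the level was 3.72 and 8.16 (ratio 2.19, 1.36 to 3.52), and in cycling macrophages 7.67 and 11.6 (ratio 1.52, 1.07 to 2.12). Cd72 Vcam1 macrophages had 13.4 and 18.1, with a ratio of 1.36 whose interval spanned 1 (0.970 to 1.88).

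**Figure D3:**
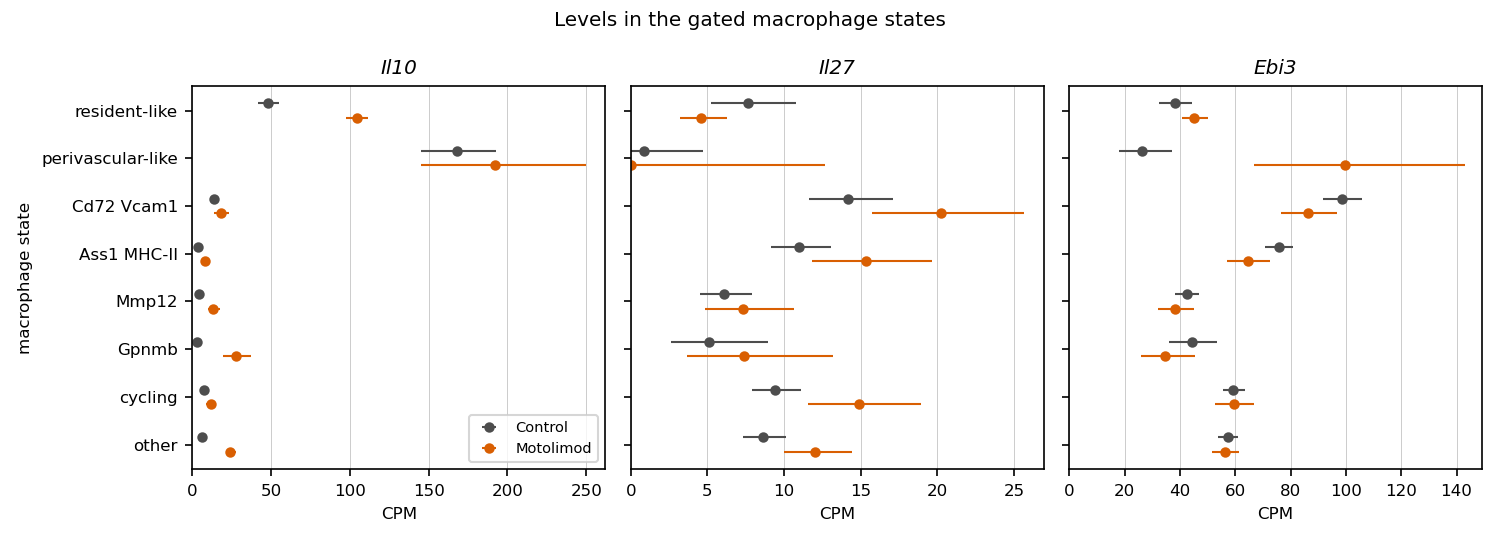
CPM of Il10, Il27 and Ebi3 in the 8 macrophage states of each library, with exact 95% Poisson intervals on linear axes. Il10 peaks in perivascular-like (168 and 192) and resident-like macrophages (48.1 and 104), whereas Il27 is highest in Cd72 Vcam1 macrophages (14.2 and 20.2).

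Among the gated groups and T cell subsets outside macrophages, Il10 was highest in regulatory T cells, the Foxp3-positive T cells that restrain other lymphocytes. T cells as a whole had 8.49 CPM in the control and 12.8 with motolimod, and the interval of their ratio of 1.51 reached from 0.911 to 2.52. Of the 30 control UMIs, 28 lay in the 49 Foxp3-positive T cells, at 54.7 CPM (36.4 to 79.1). In the motolimod library the 16 Foxp3-positive T cells held 15 of 38 UMIs, at 122 CPM (68.3 to 201). T cells without Foxp3, Cd8 or gamma-delta receptor UMIs held 14, at 24.2 CPM (13.2 to 40.6). Cd8-positive T cells held the other 9, at 4.62 CPM (2.11 to 8.76). A cell without a Foxp3 UMI may still have carried the transcript. Among the 3 members tested in T cells, Il10 was at least 1.5-fold higher and Ebi3 as much lower, where 16.4% of the 10064 genes were higher and 8.8% lower (1654 and 886, or 1280 and 1140 by median-of-ratios scaling).

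Neutrophils had 1.44 and 1.95 CPM of Il10 (3 and 13 UMIs), monocytes 0.882 and 8.46 (2 and 12 UMIs), and migratory dendritic cells had 0 UMIs in both libraries. Counts of 0 there allow levels of up to 2.47 and 10.1 CPM by the limit of 3 counts. The 3 genes whose level was most like that of Il10 over 13 cell groups of both libraries (26 points that share their libraries, log2 of CPM plus 10) were Slc9a9, an endosomal sodium-proton exchanger (r = 0.95), Stard8 (r = 0.95) and Wwp1, a ubiquitin ligase (r = 0.94). No other member reached an r above 0.17 with Il10.

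Il10ra, the ligand-binding receptor chain, was present in every main immune group. In the control library monocytes had the highest level among groups with over 100 cells, 257 CPM (236 to 278). Ass1 MHC-II macrophages followed at 185 (178 to 193), then neutrophils at 156 (139 to 173), migratory dendritic cells at 152 (131 to 176) and Cd72 Vcam1 macrophages at 151 (142 to 160), which did not differ beyond their intervals. Epithelial cells had 1.92. With motolimod the levels were 158 against 136 in macrophages (ratio 1.16, 1.12 to 1.20) and 216 against 152 in migratory dendritic cells (ratio 1.41, 1.05 to 1.89). Monocytes, in contrast, had 206 against 257 (ratio 0.802, 0.694 to 0.925).

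In neutrophils the Il10ra level was 128 with motolimod and 156 in the control, a ratio of 0.825 (0.725 to 0.941). The median log2 ratio of all genes tested in neutrophils was -0.26, and relative to that shift, by median-of-ratios scaling, the Il10ra ratio was 0.990. T cells had 114 and 123 (ratio 0.924, 0.799 to 1.07). Within T cells the Cd8-positive cells had 142 and 138, and gamma-delta T cells 35.2 and 4.80 (11 UMIs and 1 UMI). The most similar patterns to Il10ra over the 26 points were those of Fgl2 (r = 0.95), Arhgap30 (r = 0.93) and the leukocyte actin-bundling gene Lcp1 (r = 0.93).

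Il12b, the p40 chain of IL-12 and IL-23, had its highest level in migratory dendritic cells, the Ccr7- and Fscn1-positive cells that carry antigen to lymph nodes. Control migratory dendritic cells had 604 CPM (733 UMIs, 561 to 649) and motolimod ones 43.8 (13 UMIs, 23.3 to 74.9), a ratio of 0.0725 (0.0384 to 0.125). No other gated group reached 2 CPM in either library. A UMI was seen in 46 of 126 control cells (36.5%, 28.1 to 45.6) and in 9 of 34 motolimod cells (26.5%, 12.9 to 44.4), or 16.0% and 5.88% after thinning. By comparison 0.279% of control T cells and no motolimod T cell had one, at median depths of 6286 and 5028 UMIs against 8505 and 8758 for the migratory dendritic cells. The intervals of the shares overlap, while positive control cells held a median of 4 UMIs and positive motolimod cells a median of 1.

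The control level rested on few cells. The 3 highest held 197, 123 and 85 UMIs, 55.3% of the total, and 14 control cells but 0 motolimod cells held at least 10 UMIs. With each cell weighing the same the ratio was 0.131. Barcodes that passed both the migratory and the macrophage gate, 16 control and 12 motolimod, held 48 and 63 Il12b UMIs, at 144 and 386 CPM. In the motolimod library 2 of these barcodes held 31 and 25 UMIs. Counted as migratory dendritic cells, they moved the ratio to 0.327, still below 1.

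**Figure D4:**
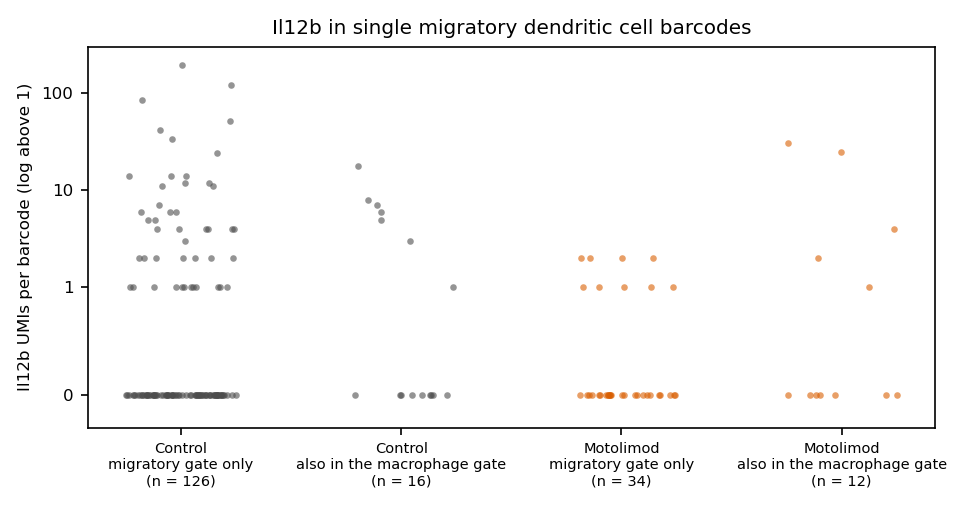
Il12b UMIs in each barcode of the migratory dendritic cell gate, by library and by whether the barcode also passed the macrophage gate (points spread sideways for visibility, vertical axis linear below 1 and logarithmic above). Control cells reach 197 UMIs, motolimod cells of the migratory gate alone at most 2, and 2 motolimod barcodes in both gates hold 31 and 25.

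The 10 markers of the migratory gate summed to 11774 CPM in these control cells and 9283 in the motolimod ones. The 10 macrophage markers summed to 459 (Adgre1 at 0) and 600, and the 8 monocyte markers to 292 and 845. The 6 cDC1 markers summed to 1221 and 876, the 5 genes of the Gpnmb macrophage gate to 2661 and 1516, and the 6 of the Ass1 MHC-II macrophage gate, which hold the MHC class II genes of all antigen-presenting cells, to 35508 and 53290. Their part in the Il12b result was not tested. Of the 4 members tested in migratory dendritic cells, Il12b, Ebi3 and Il6 were at least 1.5-fold lower and none was as much higher, where 18.2% of 5770 genes were lower and 18.4% higher. The most similar patterns to Il12b were those of Slc27a3 (r = 0.996), Gm13546 (r = 0.989) and Bcl2l14 (r = 0.975) over 26 points of which 1 cell group lay far above the rest.

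Il12a, the p35 chain, lay in other cells, and among groups of over 100 cells its level was highest in neutrophils. Neutrophils had 4.32 CPM in the control (9 UMIs, 1.98 to 8.20) and 16.8 with motolimod (112 UMIs, 13.8 to 20.2), a ratio of 3.89 (1.98 to 8.73). Relative to the median of all genes the ratio was 4.67, after thinning it was 2.56, and over whole Leiden clusters of neutrophils it was 2.25. The neutrophils of the libraries lay in different clusters: cluster 1 held 33 control and 1819 motolimod cells, cluster 3 held 306 and 879, and cluster 13 held 175 and 380. The motolimod UMIs were spread over 98 cells with at most 3 each, and the thinned share of neutrophils with one was 0.569% and 1.38%, against 0% of epithelial cells in both libraries. Macrophages had 0.132 and 0.169. In the control library 15 of the 48 Il12a UMIs lay in 2 of 7 plasmacytoid dendritic cells, the interferon-producing lineage, and 14 of them in 1 cell.

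Il23a, the p19 chain, was highest in neutrophils, at 29.8 CPM in the control (62 UMIs, 22.8 to 38.2) and 56.9 with motolimod (379 UMIs, 51.3 to 62.9). The ratio of the summed counts was 1.91 (1.46 to 2.54), or 2.29 relative to the median of all genes. It did not hold at equal depth: thinned to 1000 UMIs the ratio was 0.970, and the thinned share of neutrophils with a UMI was 3.61% and 3.68%. With each cell weighing the same the ratio was 1.22. The size of the Il23a difference in neutrophils therefore depended on the weighting. At equal depth, with 19 and 96 positive cells, no clear difference in either direction was seen.

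Elsewhere Il23a was at most 11.4 CPM in gated groups of over 100 cells. Macrophages had 0.677 and 1.44, no more than the 0.768 and 1.49 of epithelial cells. The 24 control epithelial UMIs lay in 20 cells, but all 6 motolimod ones lay in 1 cell. In the control library the macrophage level was thus not above that of epithelial cells, while with motolimod the epithelial level rested on 1 cell. Whether the epithelial UMIs were free RNA was not tested. Mmp12 macrophages held 21 UMIs in the control and 0 with motolimod, and Gpnmb macrophages 1 and 17, the 17 in 2 cells. Over the 26 points of group and library, Il12a and Il23a had the most similar pattern of any pair of members (r = 0.88). Neutrophils had the highest level of both genes among these groups in each library, so this value leaned on 1 cell group.

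Macrophage markers in the neutrophil gate summed to 966 CPM in the control and 381 with motolimod, and neutrophil markers to 57713 and 69319. Neutrophils with at least 20 Ccl3 and Ccl4 UMIs per 10000, an activated set of 325 control and 2315 motolimod cells, had 4.87 and 17.8 Il12a CPM. Those below that level, 237 and 433 cells, had 3.79 and 10.7. For Il23a the levels were 29.2 and 59.9 above and 30.3 and 38.4 below. By summed counts both genes were higher with motolimod on either side of the split, but below it the intervals of the libraries overlapped. There Il12a had 4 and 10 UMIs (1.03 to 9.69 and 5.12 to 19.6 CPM) and Il23a 32 and 36 (20.7 to 42.8 and 26.9 to 53.2). Above the split the intervals of both genes lay apart. Of the 6 members tested in neutrophils, Il12a, Il23a and Ebi3 were at least 1.5-fold higher and Il6 as much lower, where 16.9% of 9260 genes were higher and 37.2% lower. By median-of-ratios scaling 2319 of these genes were higher and 2702 lower, in place of 1564 and 3449.

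The chains of IL-12 and of IL-23 were not seen together in any barcode. Among the 7484 control barcodes 24 had an Il12a UMI, 100 an Il23a UMI and 80 an Il12b UMI. In the 9314 motolimod barcodes the numbers were 129, 260 and 25. In both libraries 0 barcodes held Il12b with Il12a and 0 held Il12b with Il23a. Neutrophils had 0 Il12b UMIs over 562 and 2748 cells, which allows levels of up to 1.44 and 0.450 CPM. Among migratory dendritic cells, 1 control cell had an Il12a UMI and none had an Il23a UMI. With few UMIs per cell, a chain that is not seen may still have been present.

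Il27 is the p28 chain. It had 9.18 CPM in control macrophages (624 UMIs, 8.47 to 9.93) and 11.1 in motolimod ones (393 UMIs, 10.0 to 12.2), a ratio of 1.21 (1.06 to 1.37). With each cell weighing the same the ratio was 0.858, and after thinning it was 0.587, with shares of 1.13% and 0.676%, so the direction turned with the weighting. Monocytes (16.3 and 19.0) and Cd72 Vcam1 macrophages (14.2 and 20.2) had the highest levels, with overlapping intervals. Resident-like macrophages had 7.63 and 4.56 (ratio 0.598, 0.362 to 0.991), an interval just below 1, while by summed counts Il10 was higher there. After thinning 1 of 355 and 4 of 1480 resident-like macrophages had an Il27 UMI, too few to show a direction. Perivascular-like macrophages, the highest in Il10, held 1 and 0 UMIs.

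Ebi3, the shared chain of IL-27 and IL-35, had a level in macrophages of 61.5 CPM in the control (59.6 to 63.4) and 55.5 with motolimod (53.1 to 58.0), a ratio of 0.904 (0.856 to 0.953). Thinned to equal depth the ratio was 0.708. Among the states it was highest in Cd72 Vcam1 macrophages in the control (98.7) and was 86.2 there with motolimod. Perivascular-like macrophages differed most, with 26.3 (31 UMIs) and 99.5 (29 UMIs), a ratio of 3.79 (2.20 to 6.5) over 181 and 63 cells.

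Ebi3 differed in opposite directions in other groups. Neutrophils had 52.3 and 83.6 CPM (ratio 1.60, 1.30 to 1.98, or 1.92 relative to the median of all genes). Migratory dendritic cells had 133 and 80.8 (ratio 0.609, 0.379 to 0.939), and T cells 19.5 and 7.76 (ratio 0.397, 0.236 to 0.645). After thinning, the share of neutrophils with an Ebi3 UMI was 5.88% and 7.75%, a smaller difference than by summed counts. The thinned shares were 9.6% and 5.88% in migratory dendritic cells and 1.69% and 0.446% in T cells. Within T cells the Foxp3-positive cells had 93.8 and 81.3 CPM of Ebi3, numbered 49 and 16, and held 48 of the 69 control and 10 of the 23 motolimod UMIs. Migratory dendritic cell markers in T cells summed to 253 and 194 CPM and macrophage markers to 442 and 385, and their part in the result was not tested.

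In macrophages both IL-27 chains were seen in 311 control cells (7.24%, 6.49 to 8.06) and 157 motolimod cells (3.56%, 3.04 to 4.15). After thinning the numbers were 3 and 0, so the count depended on the depth. Of Il27-positive macrophages, 64.5% also had an Ebi3 UMI in the control and 51.3% with motolimod, where 50.5% and 28.3% of all macrophages had one. In Cd72 Vcam1 macrophages the pair was seen in 13.02% and 12.03% of cells. The IL-35 pair of Il12a and Ebi3 was seen in 2 control and 21 motolimod neutrophils (0.356% and 0.764%), with overlapping intervals (0.0431 to 1.28 and 0.474 to 1.17). After thinning the numbers were 1 and 4 (0.190% and 0.153%), so no difference was seen at equal depth. Of the 6 and 98 Il12a-positive neutrophils, 33.3% and 21.4% had an Ebi3 UMI, where 13.7% and 15.4% of all neutrophils had one. Across the 26 points Ebi3 was more similar in pattern to Il10ra (r = 0.77) than to Il27 (r = 0.57).

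Il6 was sparse and spread over many groups. Macrophages had 2.63 CPM in the control (179 UMIs) and 4.51 with motolimod (160 UMIs), a ratio of 1.71 (1.38 to 2.13), which was 1.23 at the control mix of states. Resident-like macrophages had 7.15 and 9.36 and Mmp12 macrophages 7.43 and 7.32, the highest of the states with over 100 cells in each library, and the intervals of both ratios spanned 1. Monocytes had 7.50 (17 UMIs) and 24.0 (34 UMIs), a ratio of 3.20 (1.74 to 6.10). These UMIs lay in 7 control and 15 motolimod monocytes, and the 3 highest control cells held 13 of the 17.

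In neutrophils Il6 was lower, 1.5 against 10.6 CPM (10 and 22 UMIs, ratio 0.142, 0.0601 to 0.313), but 12 of the 22 control UMIs came from 1 cell. The highest control level was that of the 19 mast cells, histamine-storing tissue cells, with 198 CPM (14 UMIs in 8 cells), and the 2 motolimod mast cells had 0 UMIs. Fibroblasts, 12 and 15 cells, had 41.1 and 97.7 (12 and 34 UMIs). Migratory dendritic cells had 19.0 and 10.1 (23 and 3 UMIs, ratio 0.533, 0.103 to 1.76). Most of these values rest on few UMIs.

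The genes that receive these cytokines were read in the same way. Of the 7 other receptor genes, 6 were tested in macrophages, with a median log2 ratio of 0.27 against 0.04 over all genes. Of the 6, 1 was at least 1.5-fold higher, where 13.2% of all genes were. That gene was Il6ra, the IL-6 binding chain, at 34.4 CPM in the control and 63.8 with motolimod (ratio 1.85, 1.75 to 1.97). The ratio was 1.38 for Il6st, the signalling chain gp130, 1.25 for Il10rb, 1.16 for Il27ra, 1.07 for Il12rb1 and 0.893 for Il12rb2. Il23r had 12 and 0 UMIs.

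In T cells all 7 receptor genes were tested and 2 were at least 1.5-fold higher, where 16.4% of all genes were. Il12rb2, the chain that makes T cells responsive to IL-12, had 27.5 CPM in the control and 55.0 with motolimod (ratio 2.00, 1.55 to 2.60). Il23r had 4.25 and 6.75 (15 and 20 UMIs, ratio 1.59, 0.773 to 3.34), and Il10rb had a ratio of 1.44. The other 4 lay between 1.13 and 1.19. By median-of-ratios scaling 1 receptor gene, not 2, passed 1.5-fold in T cells.

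Of 12 genes that IL-12, IL-23 or IL-27 induce in lymphocytes, 10 were tested in T cells. With motolimod 6 of them passed 1.5-fold upwards and 0 downwards, where 16.4% and 8.8% of all genes did, and the median log2 ratio was 0.71 against 0.08 over all genes. Il17f, an IL-17 family cytokine, had 1.98 and 11.8 CPM (ratio 5.96, 2.61 to 15.9). Il18rap, an IL-18 receptor chain, had a ratio of 1.83 (1.54 to 2.19), and Il17a had 150 and 273 (ratio 1.82, 1.63 to 2.03). Il18r1 (1.72) and Ifng (1.55), named after their values were seen, also passed 1.5-fold. The T cells also differed in makeup, with 77 and 82 gamma-delta, 190 and 241 Cd8-positive and 49 and 16 Foxp3-positive cells, and the part of makeup was not tested.

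Few downstream signalling genes in macrophages passed 1.5-fold. None of the 6 Janus kinase and STAT genes passed 1.5-fold, with ratios of 1.47 for Jak2, 1.24 for Tyk2 and 1.16 for Stat4. Of 10 genes induced by STAT3 or IL-10, Dusp1, a phosphatase that ends MAP kinase signals, passed at 1.72, followed by Sbno2 at 1.40, the IL-1 receptor antagonist Il1rn at 1.38 and Etv3 at 1.33. The median log2 ratio was 0.32 for these 10 genes and 0.26 for the 6 Janus kinase and STAT genes, against 0.04 over all genes. Of all genes tested in macrophages, 13.2% were at least 1.5-fold higher. Whether these genes follow Il10 was not tested.

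Of 13 transcription factors of the cytokine genes, 3 were at least 1.5-fold higher in macrophages and 0 lower, where 13.2% and 10.8% of all genes were. Maf, which activates Il10, had 134 CPM in the control and 297 with motolimod (ratio 2.23, 2.16 to 2.29). Irf4 had 2.82 and 6.48 (ratio 2.30, 1.89 to 2.79), Nfkbiz, an NF-kB cofactor of the Il6 gene, 152 and 301 (ratio 1.98, 1.93 to 2.03), and Irf1 a ratio of 1.37. Of the other IL-10 and IL-6 family ligands, 4 were tested in macrophages, and Il11 was lower (19 and 3 UMIs, ratio 0.303, 0.0573 to 1.03), with Lif at 1.15, Clcf1 at 1.06 and Osm at 1.06. The lymphocyte response genes in macrophages gave 3 higher and 2 lower of 9, at a summed T cell marker level of 44.0 and 34.5 CPM.

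In neutrophils 2 of 10 STAT3 and IL-10 induced genes were at least 1.5-fold higher and 3 lower, and in migratory dendritic cells 4 were higher and 3 lower. Il1rn was past 1.5-fold in both, at 1094 and 3482 CPM in neutrophils (ratio 3.18) and 60.2 and 148 in migratory dendritic cells (ratio 2.46), and it was chosen after its values were seen. Of the 13 transcription factors, 2 were higher and 4 lower in neutrophils, 1 higher and 2 lower among 11 tested in migratory dendritic cells, and 3 higher and 3 lower in T cells. The receptors gave 0 higher and 1 lower of 3 in neutrophils and 1 higher and 0 lower of 3 in migratory dendritic cells. In T cells 1 of 6 Janus kinase and STAT genes was higher, Stat4, which IL-12 activates (48.1 and 84.0 CPM, chosen after its values were seen). Neutrophils and migratory dendritic cells each had 0 such genes higher and 1 lower. The STAT3 and IL-10 induced genes gave 0 in either direction in T cells. Of the lymphocyte response genes, 1 was higher and 3 lower of 5 in neutrophils and 1 higher and 1 lower of 2 in migratory dendritic cells. The other ligands gave 0 higher and 1 lower of 3 in neutrophils, 0 in either direction of 1 in migratory dendritic cells and 1 higher of 2 in T cells. Relative to the median of all neutrophil genes, the STAT3 and IL-10 induced genes gave 3 higher and 0 lower, the transcription factors 4 and 4, the receptors 1 and 1, the Janus kinases and STATs 2 and 1, and the other ligands 0 and 0.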

How the data were processed

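Per the file headers, the authors deposited unnormalized UMI counts, 1 matrix for each library. Cell Ranger mapped the reads to mm10; its version is 5.0.1 in the submitters' processing notes but 7.1.0 in the matrix headers, and the intron and strand settings are not given in the sources used here. A barcode was kept if it had 300 or more genes, 800 or more UMIs and no more than 10% of UMIs from mitochondrial genes. No doublet caller was run; barcodes in more than 1 of 5 lineage gates were set aside. A gate required at least 2 marker UMIs and a summed marker level per 10000 UMIs of 30 for macrophages, 50 for neutrophils, 10 for T cells, 5 for epithelial cells and 20 for migratory dendritic cells; perivascular-like macrophages were called first and other states by the largest excess over their threshold. Genes with at least 20 UMIs over both libraries in a group were tested against a 1.5-fold ratio, with no p-value. Ratio and interval code was tested on simulated data. All 8 members were named, with every receptor, up to 4 genes per list with the largest log2 ratio, and the 3 genes most like Il10, Il12b and Il10ra. Values of 2 list genes are not reported here, though the list counts include them. Members and lists were chosen with earlier results of these data known. Alternatives changed scaling, cell weighting, depth, filters, gates and clustering. Computations used Python 3.11.15, numpy 2.4.6, scipy 1.17.1, pandas 2.3.3, scanpy 1.11.5, leidenalg 0.10.2 and matplotlib 3.10.9.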

Additional observations from a re-analysis of the deposited data

Results flagged for a closer look

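For 3 genes the difference between libraries had opposite directions in different cell groups, with intervals on opposite sides of 1; the difference between the groups was itself not tested. The Ebi3 ratio of motolimod to control was 1.60 in neutrophils and 0.397 in T cells. The Il6 ratio was 3.20 in monocytes and 0.142 in neutrophils. Both rested on few cells with a UMI, 7 control and 15 motolimod monocytes and 6 neutrophils in each library. Intervals of counting error alone may be too narrow there. The Il10ra ratio was 1.41 in migratory dendritic cells and 0.802 in monocytes.

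Some members also had UMIs in motolimod barcodes outside the compared groups, at levels above those of the same barcodes in the control library. Among mixed barcodes Il10 had 30.9 CPM against 15.5 in the control, and Il12b 10.3 against 4.26. Among barcodes in no gate Il12a had 3.93 CPM against 0.184, Il23a 16.0 against 3.32 and Ebi3 66.8 against 29.3.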

How the results depend on the processing

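No paired analysis was possible because each group has 1 library. Of 70 alternative values of the leading ratios, 48 stayed within the counting interval. The other 22, all given here, include 5 that crossed 1: 3 for Il27, whose ratio was under 1.5-fold, and 2 for Il23a. With each cell weighing the same, the macrophage ratios were 2.65 for Il10, 0.858 for Il27, 0.837 for Ebi3 and 1.11 for Il10ra, that of Il12b in migratory dendritic cells 0.131 and that of Il23a in neutrophils 1.22. Thinned to 1000 UMIs they were 2.70 for Il10, 0.587 for Il27, 0.708 for Ebi3, 0.129 for Il12b and 0.970 for Il23a, and with gates set after thinning 2.73, 0.590 and 0.719 for the first 3 and 0.948 for Il23a. At the control mix of states the macrophage ratios were 2.06 for Il10, 1.39 for Il27, 0.956 for Ebi3 and 1.23 for Il6. Il12b was 0.310 with mixed barcodes kept and 0.327 with barcodes of both gates counted as migratory, and Il23a in Leiden clusters was 1.13. Gates after thinning, the control mix, both-gate barcodes and a stricter neutrophil gate were chosen after seeing the data. With genes of at least 1 UMI, 3163 genes were higher and 2278 lower in macrophages, 5888 lower in neutrophils, 2745 higher and 1647 lower in migratory dendritic cells, and 2872 higher and 1616 lower in T cells, since more genes were tested. Leiden clustering gave no cluster of migratory dendritic cells or monocytes and so no value there, and the stricter cell filter gave none for Il12a in neutrophils. The cause of the other shifts was not tested. Depth limits the sparse chains most: Il12a, Il12b outside migratory dendritic cells, and Il6.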
